A study of Caenorhabditis elegans with 2 samples.

Results

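The proteasome subunit genes of Caenorhabditis elegans were taken as every protein-coding gene whose symbol begins with pas, pbs, rpt or rpn followed by a number, which gave 33 of the 19973 protein-coding genes in the annotation. Of these, 14 encode the core particle (7 alpha ring and 7 beta ring subunits) and 19 the regulatory particle (6 ATPases and 4 other subunits of the base, and 9 lid subunits). The measurement was chromatin immunoprecipitation followed by sequencing (ChIP-seq) of SMA-3, a receptor-regulated Smad that carries signals of the BMP-like Sma/Mab pathway, with an antibody against GFP. There was 1 group of 2 labelled biological replicates: whole hermaphrodites of strain CS152, which carries the allele sma-3(wk30) and the transgene qcIs[gfp::sma-3+rol-6], collected as L2 larvae 24 hours after their growth was synchronized from starved L1 larvae. Both replicates thus share the sma-3(wk30) mutation, the tagged transgene and the rol-6 marker, and come from a single transgenic line made by microinjection. The labels place the tag as a C-terminal GFP-FLAG, whereas the genotype writes GFP before SMA-3, and the sources used here do not name the promoter that drives the transgene. The larva is a mixture of all tissues, so which cells contributed is unknown, and no immunoprecipitation from worms without the tag was analysed here. How much of the signal arises at active promoters irrespective of SMA-3 was therefore not tested.

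The 26S proteasome destroys proteins that carry ubiquitin chains. Its core particle is a barrel of stacked alpha and beta rings: the alpha rings gate the entrance, and 3 beta subunits, encoded in the worm by pbs-1, pbs-2 and pbs-5, carry the cutting sites. The regulatory particle recognises, unfolds and feeds in the substrate, with the rpt ATPases as its motor, scaffold and ubiquitin-receptor subunits in its base, and a lid that removes ubiquitin. In worms, an endoplasmic reticulum form of the transcription factor SKN-1 is known to raise proteasome gene expression when the proteasome is inhibited, and cells have to make the subunits in balanced amounts.

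The authors' optimal list holds 4205 peaks and equals the highest 4205 of the 30000 regions of their pooled list by peak signal. The authors label the optimal list as thresholded by IDR, a measure of reproducibility, and the pooled list as peaks and background. A pooled region outside the optimal list may therefore be background. Peak signal is the value given for each peak by the authors. The sources used here state neither its scale nor the sequencing depth, and it serves below to describe and rank peaks within a list, where rank 1 is the highest. A gene was given a promoter peak when a peak summit lay between 1000 bp upstream and 200 bp downstream of one of its annotated start sites. Sequences reaching 75 bases to either side of the summit are shown first for the 6 members of highest signal on chromosomes II to V. They are examples and do not give motif frequencies, which follow below for all member peaks. Signal was higher at pas-4 (289) and pas-5 (250.2) than at 4 of these 6, but both lie on another chromosome and are not shown, and neither summit window held any of the motifs searched. All are on build ce11 (WBcel235), read from RefSeq, in the direction of the proteasome gene. Capitals mark matches, on either strand, to any of the 8 motifs searched. The first 3 windows each hold the TGTCAT form of a SKN-1 core site, here as TGTCAT or its complement ATGACA. They belong to the lid deubiquitinase rpn-11 (II:4044476-4044626, minus strand), the ATPase rpt-2 (V:6017741-6017891, minus strand) and the catalytic beta subunit pbs-1 (IV:1709870-1710020, minus strand).
rpn-11: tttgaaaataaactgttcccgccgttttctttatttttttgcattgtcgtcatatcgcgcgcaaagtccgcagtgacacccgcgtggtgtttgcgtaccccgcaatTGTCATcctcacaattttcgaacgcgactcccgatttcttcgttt
rpt-2: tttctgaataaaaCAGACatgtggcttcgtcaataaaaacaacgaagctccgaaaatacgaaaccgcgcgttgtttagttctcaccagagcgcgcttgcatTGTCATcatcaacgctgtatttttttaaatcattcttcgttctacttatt
pbs-1: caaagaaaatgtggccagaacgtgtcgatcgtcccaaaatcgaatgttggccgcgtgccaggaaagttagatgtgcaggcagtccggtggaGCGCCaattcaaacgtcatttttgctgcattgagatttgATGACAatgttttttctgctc
The capitals CAGAC in the rpt-2 window are a GTCTG match, the element that Smad proteins bind, and GCGCC in the pbs-1 window is a match to the GC-rich Smad element GGCGC.

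The other 3 windows hold no SKN-1 core site. They belong to the lid subunit rpn-3 (III:8447093-8447243, plus strand), the ATPase rpt-1 (V:11982442-11982592, minus strand) and the lid subunit rpn-9 (II:11239123-11239273, minus strand). Each holds GTCTG, seen here as its complement CAGAC, and the rpt-1 window holds 2 overlapping copies just past its centre.
rpn-3: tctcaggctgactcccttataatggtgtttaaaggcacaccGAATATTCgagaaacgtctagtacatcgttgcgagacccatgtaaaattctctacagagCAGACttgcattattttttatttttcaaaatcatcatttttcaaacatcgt
rpt-1: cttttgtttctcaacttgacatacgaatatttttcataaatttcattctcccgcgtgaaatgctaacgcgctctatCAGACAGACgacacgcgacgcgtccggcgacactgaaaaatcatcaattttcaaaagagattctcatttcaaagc
rpn-9: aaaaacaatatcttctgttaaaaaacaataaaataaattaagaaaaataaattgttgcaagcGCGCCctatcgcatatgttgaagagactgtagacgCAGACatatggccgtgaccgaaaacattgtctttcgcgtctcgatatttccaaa
The capitals GAATATTC in the rpn-3 window match the heat shock element GAANNTTC, and GCGCC in the rpn-9 window matches GGCGC. A match describes letters and does not show that a factor was bound there.

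Promoter peaks were found at 21 of 33 proteasome genes (63.6%, 95% exact binomial interval 45.1 to 79.6%), against 14.3% of all protein-coding genes (2863 of 19973). The core particle had 8 of 14 genes with a peak (57.1%, 28.9 to 82.3%) and the regulatory particle 13 of 19 (68.4%, 43.4 to 87.4%). These wide intervals, which cover counting only, overlap across most of their length, and the difference between the particles was not tested. Within the core, 4 of 7 alpha ring genes and 4 of 7 beta ring genes had a peak. Within the regulatory particle, 5 of 6 ATPases and 7 of 9 lid genes had one, but only 1 of the 4 remaining base genes. When any region of the pooled list was counted, background included, 31 of 33 members had a promoter region, against 41.5% of all genes. The 2 members with none in the pooled list were pas-6 and rpn-6.2.

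**Figure D1:**
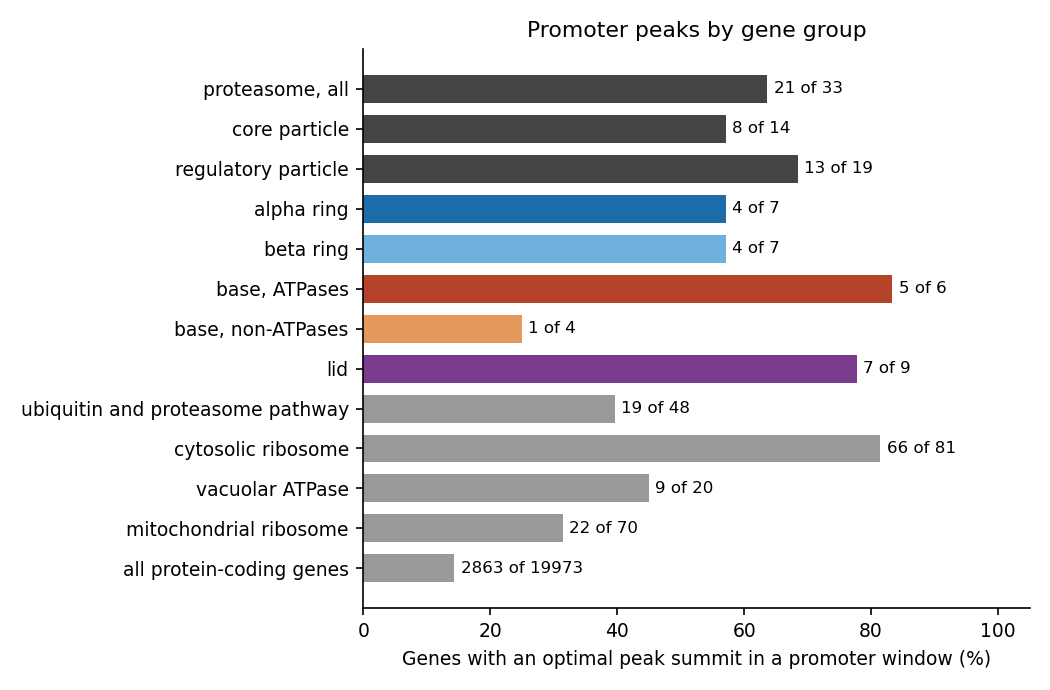
Share of genes in each group with an optimal peak summit in a promoter window, in percent, with the counts beside the bars: the proteasome and its parts above, comparison gene groups in grey below. The proteasome bar (63.6%) lies above that of all protein-coding genes (14.3%) and below that of the cytosolic ribosome (81.5%).

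The proteasome peaks were of moderate height. Their median signal was 125 (core 123, regulatory 125), against 137 over all genes with a promoter peak, and their median rank among the 4205 peaks was 1998, against 1755. Taking every member with a pooled region, the median percentile of its best region was 91.0 for the core and 90.4 for the regulatory particle, against 76.5 for all genes with such a region. The optimal peaks are the highest pooled regions, so these percentiles largely restate the share of genes with a peak.

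**Figure D2:**
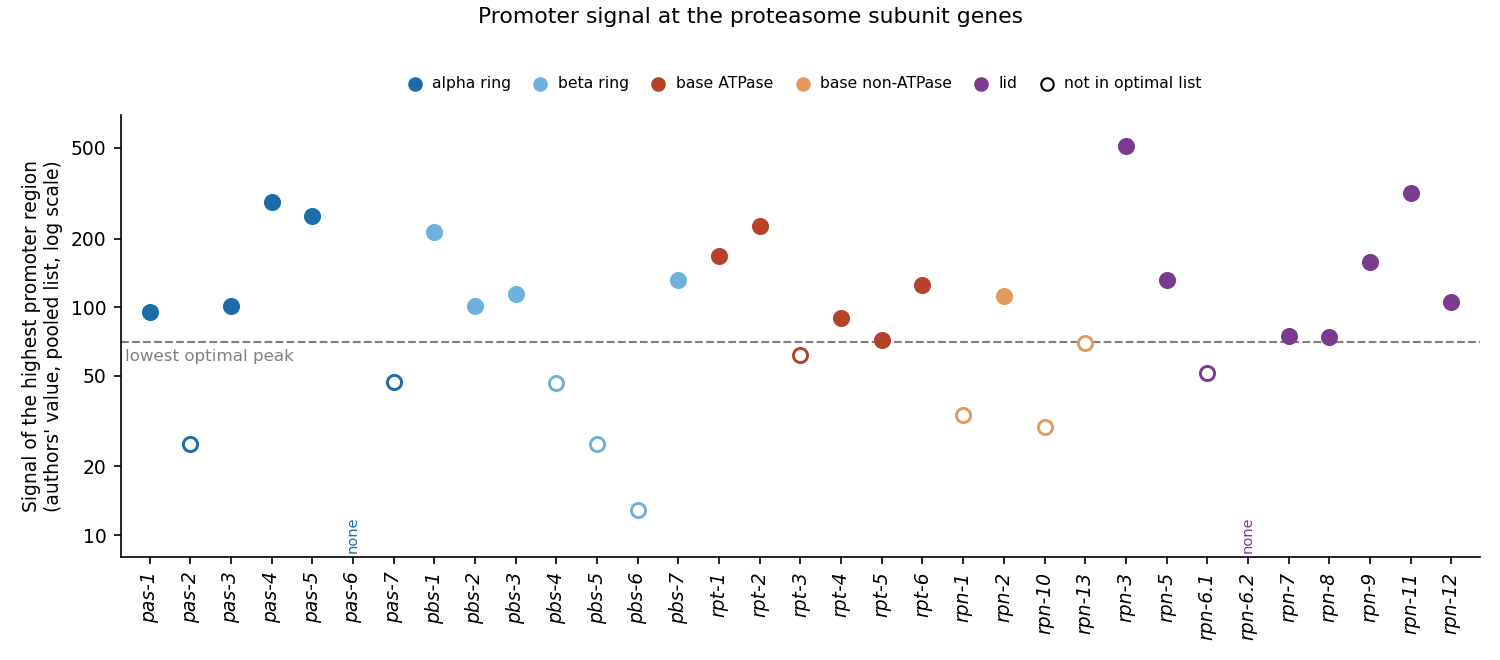
Signal of the highest pooled region in the promoter windows of each proteasome gene (authors' value, log scale), coloured by subunit class; open circles are genes outside the optimal list and the dashed line is the lowest optimal peak (70.1). rpn-3 (511) is the highest and pbs-6 (12.8) the lowest of the 31 genes with a region, and 1 of the 4 base subunits other than ATPases, rpn-2, lies above the dashed line.

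In the alpha ring, peaks lay at V:14423245-14423644 for pas-1, I:5105979-5106378 for pas-3, I:8728521-8728736 for pas-4 and I:10565377-10565499 for pas-5 (ce11). The highest peak was at pas-4, with a pooled signal of 289 (rank 435) and signals of 115 in replicate 1 and 173 in replicate 2. At pas-5 the pooled signal was 250.2 (rank 608), with 94.3 in replicate 1 and 153 in replicate 2, but its summit lay 912 bp upstream, the farthest of any member. A small nucleolar RNA gene, F25H2.15, lies within 100 bp of that summit, and its part in the peak was not tested. Peaks at pas-3 (signal 101, rank 2702) and pas-1 (signal 95.3, rank 2932) were lower. The pas-1 summit lay 827 bp upstream of pas-1 but only 141 bp upstream of rpoa-12, an RNA polymerase I subunit gene on the same strand. The remaining alpha genes had no peak: the best pooled region ranked 6451 at pas-7 (signal 47.0) and 12145 at pas-2 (signal 25.2), and pas-6 had no region in any of the lists.

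In the beta ring, the catalytic subunits differed in signal. Peaks lay at IV:1709848-1710049 for pbs-1, I:12968427-12968826 for pbs-2, II:4955360-4955759 for pbs-3 and I:8696363-8696517 for pbs-7. At pbs-1, the caspase-like subunit, the pooled signal was 215 (rank 814), with 104 in replicate 1 and 109 in replicate 2. At pbs-2, the trypsin-like subunit, it was 101 (rank 2700), with 34.2 in replicate 1 and 65.9 in replicate 2. At pbs-5, the chymotrypsin-like subunit, the best pooled region had a signal of 25.1 (rank 12191), with 5.88 in replicate 1 and 26.03 in replicate 2, and its summit lay 145 bp downstream of the start site. So the order pbs-1, pbs-2, pbs-5 was the same in both replicates, and only the first 2 had a peak. Among the non-catalytic beta subunits, pbs-7 (signal 131, rank 1869) and pbs-3 (signal 115, rank 2302) had peaks, whereas pbs-4 (46.5, rank 6515) and pbs-6 (12.8, rank 25174) did not.

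All 6 ATPase genes of the base had a pooled promoter region, and 5 had a peak, at V:11982441-11982591 for rpt-1, V:6017721-6017919 for rpt-2, II:43637-44036 for rpt-4, I:5743857-5744256 for rpt-5 and III:12370024-12370423 for rpt-6. The highest was rpt-2, with a pooled signal of 228 (rank 721), 90.1 in replicate 1 and 137 in replicate 2. Next came rpt-1, with 168 (rank 1276), 71.3 in replicate 1 and 90.7 in replicate 2. They were followed by rpt-6 (125, rank 1998), rpt-4 (89.3, rank 3165) and rpt-5 (71.8, rank 4098), the lowest peak of any member. The one ATPase without a peak, rpt-3, had a best region of 61.5 (rank 4876) with its summit 675 bp upstream.

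The rest of the base includes the ubiquitin receptors, and 1 of its 4 genes had a peak. This was the scaffold gene rpn-2 (III:6198653-6199052), with a signal of 112 (rank 2381). The ubiquitin receptor rpn-13 had a best region of 69.4 (rank 4266), which lies just under the lowest optimal peak at 70.1. The scaffold rpn-1 reached 33.7 (rank 8938) and the ubiquitin receptor rpn-10 reached 29.8 (rank 10162). Close to the boundary, the members inside it were rpt-5 (71.8) and the pair rpn-7 and rpn-8 (74.4 each), and those outside were rpn-13 (69.4) and rpt-3 (61.5).

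The lid held the strongest peak of the whole complex, at rpn-3. Peaks of the lid lay at III:8447034-8447296 for rpn-3, II:4698385-4698520 for rpn-5, IV:9316035-9316434 for rpn-7, I:4174872-4175271 for rpn-8, II:11239097-11239267 for rpn-9, II:4044446-4044684 for rpn-11 and II:11652735-11653134 for rpn-12. At rpn-3 the pooled signal was 511 (rank 110), with 239 in replicate 1 (rank 75) and 279 in replicate 2 (rank 131). Second came rpn-11, the deubiquitinase that strips ubiquitin from substrates, with a pooled signal of 318 (rank 354), 140 in replicate 1 and 179 in replicate 2. The other lid peaks were at rpn-9 (158, rank 1400), rpn-5 (132, rank 1848), rpn-12 (105, rank 2578), rpn-7 (74.4, rank 3941) and rpn-8 (74.4, rank 3942), the last encoding the partner of the rpn-11 product. The paralogous pair rpn-6.1 and rpn-6.2 had no peak: rpn-6.1 had a pooled region of 51.5 (rank 5861), and rpn-6.2 had a region only far down each replicate list, at rank 22751 in replicate 1 and 22704 in replicate 2.

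Each replicate taken alone gave a similar count. Among as many of the highest regions as there are optimal peaks, 20 members had a promoter region in replicate 1, against 13.9% of all genes, and 22 in replicate 2, against 14.3% of all genes. Both lists shared 18 members, against 2420 of all 19973 genes. All 21 member peaks overlapped a region in both replicates, and 18 of them differed less than 2-fold in rank. The exceptions were rpn-7, pbs-3 and rpn-12, each ranked higher in replicate 2. Each replicate list holds 30000 regions. The optimal list is labelled as thresholded on reproducibility, and it equals the highest regions of the pooled list, which was derived from both replicates. Such agreement may therefore be partly built in, and no share over all optimal peaks is given beside it. For rpn-7 the overlapping region ranked 18219 in replicate 1 and 2895 in replicate 2, a 6.29-fold difference, so that peak rests on replicate 2. For pbs-3 the ranks were 4392 and 1697 in replicates 1 and 2, and for rpn-12 they were 4183 and 1821. Among members without a peak, rpn-6.1 ranked 3017 in replicate 1 but 12481 in replicate 2, whereas rpn-13 and rpt-3 were among the highest 4205 in replicate 2 alone. Over the 32 members with a region in both replicates, Spearman's rho of the ranks was 0.827, given as a description of points that share both libraries. With peaks required to overlap the highest regions of both replicates, 18 members kept a peak (core 7, regulatory 11), against 12% of all genes, and those lost were pbs-3, rpn-7 and rpt-5. With that overlap required to be reciprocal and at least 50%, 13 members kept one (core 5, regulatory 8), against 8.82% of all genes, and the further losses were pas-5, pbs-7, rpt-1, rpn-5 and rpn-9.

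**Figure D3:**
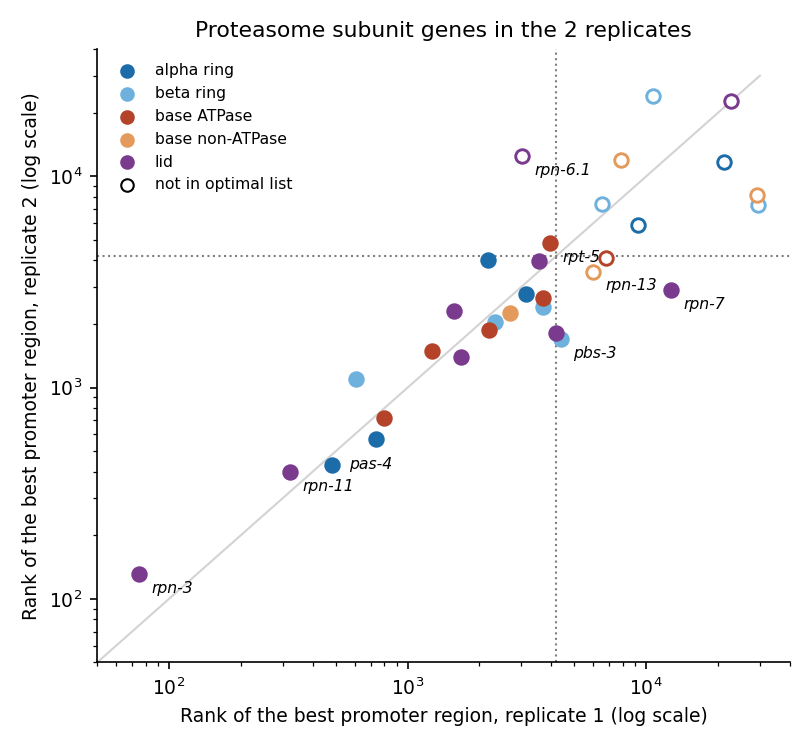
Rank of the best promoter region of each of 32 proteasome genes in replicate 1 and replicate 2 (log scales, 1 is the highest signal); dotted lines mark rank 4205, and the grey line equal ranks. The highest members, rpn-3, rpn-11 and pas-4, lie near the line of equal ranks, and rpn-7 and rpn-6.1 lie far from it on opposite sides.

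Most summits lay close upstream of an annotated start site. All 21 were upstream of the start site used, against 95.2% over all genes with a promoter peak, at a median of 189 bp (other genes with a promoter peak 232 bp). Between 400 and 100 bp upstream lay 16 of 21 (76.2%), against 53.7% over all genes with a promoter peak. The nearest was rpn-11, whose summit was 5 bp upstream of the start site used, and rpn-5 followed at 33 bp.

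Most member peaks were shared with a neighbour. For 16 of 21 (76.2%) the same summit also lay in the promoter window of another gene, against 46.6% over all genes with a promoter peak. In 15 cases the partner lay on the opposite strand, and in the case of pas-1 it lay on the same strand. The rpt-4 summit (II:43837) lay inside the annotated gene (II:42207-46216), upstream of a start site at II:43662. Several partners belong to other basic machinery: pas-4 shared its peak with rpb-3, an RNA polymerase II subunit gene, pbs-2 with the ribosome biogenesis factor gene eif-6, and rpt-2 with aps-1, a clathrin adaptor subunit gene. The peak of rpn-3 lay 185 bp upstream of rpn-3 and 259 bp upstream of hsp-110, which encodes a chaperone of the Hsp110 family. rpn-5 shared its peak with the cohesin gene scc-1, rpn-8 with the mitochondrial ribosomal gene mrps-6, rpt-4 with nfyc-1, a subunit gene of the NF-Y factor, and pas-3 with use-1. The remaining partners were K08D12.3 (pbs-1), F39H11.1 (pbs-7), rad-8 (rpt-5), C23G10.7 (rpn-2), F49C12.9 (rpn-7) and T06D8.9 (rpn-9). One pair joined members of the same pathway: the peak between rpn-12 and rad-23, a gene for a shuttle that brings ubiquitinated proteins to the proteasome, lay 189 bp from rpn-12 and 206 bp from rad-23. Peaks in the window of a proteasome gene alone were those of pas-5, pbs-3, rpt-1, rpt-6 and rpn-11.

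**Figure D4:**
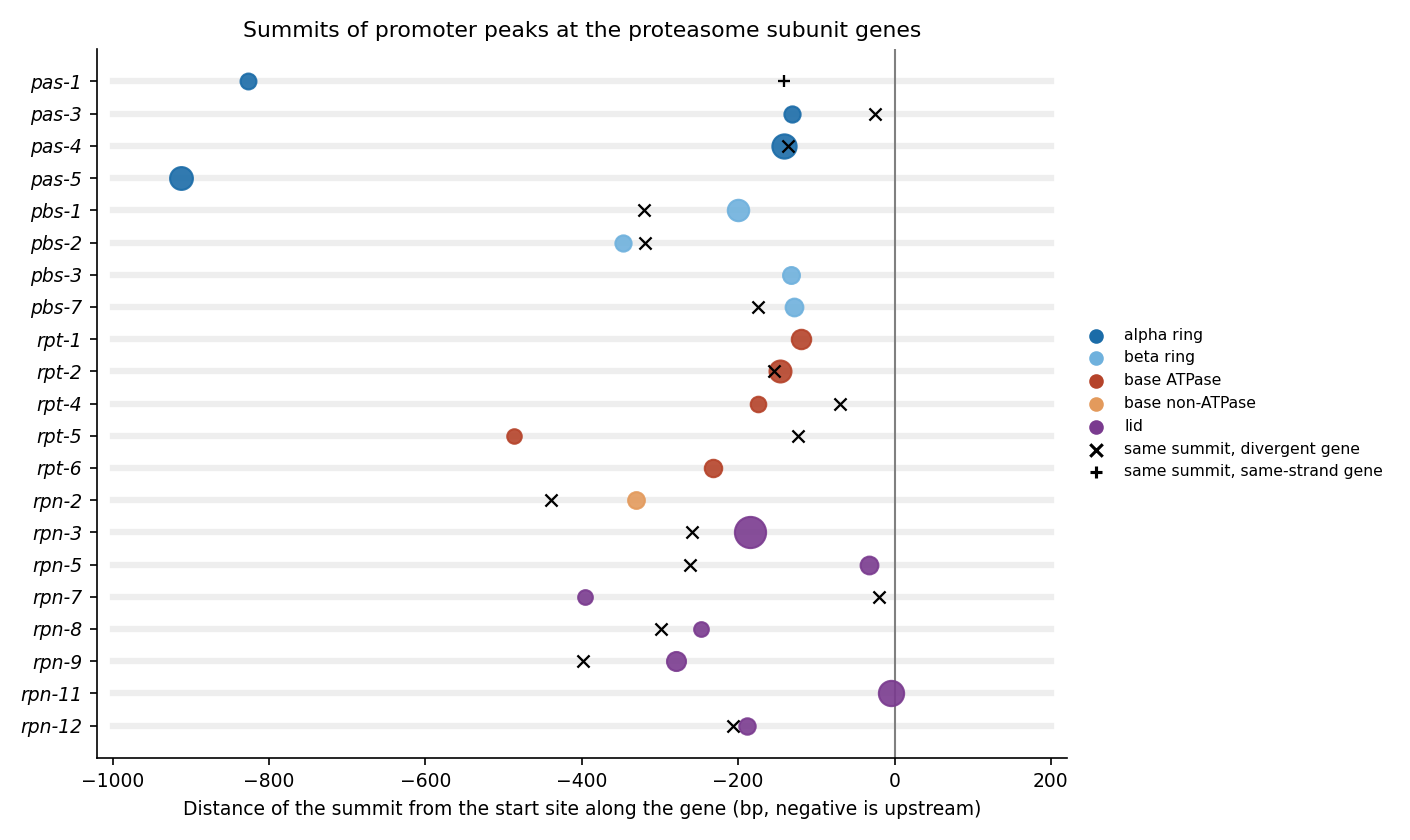
Distance of the peak summit from the start site of each of the 21 proteasome genes with a promoter peak (bp, negative is upstream), with dot area rising with signal; crosses and the plus give the distance of the same summit from the start site of the other gene that shares it. Most summits lie between 400 and 100 bp upstream, and pas-5 and pas-1 lie farthest away.

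A peak between divergent genes cannot be assigned to either of them. Counting each summit for the gene with the nearest start site alone, 14 members kept a peak (core 4, regulatory 10), against 11% of all genes. Those whose summit lay nearer to another gene were pas-1, pas-3, pas-4, pbs-2, rpt-4, rpt-5 and rpn-7. The arrangement itself was common among members: 21 of 33 (63.6%) had a divergent start site within 1000 bp of their most upstream start, against 18.2% of all genes. The partner of rpt-4 was counted from a start site farther downstream, so rpt-4 is not among the 21. Peaks were found at 14 of these 21 (66.7%), against 30.8% of all genes so arranged. Among the 12 members without a divergent start, 7 had a peak (58.3%), against 10.7% of all such genes. The members' share with a peak was thus above that of all genes in both arrangements.

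The 12 members without a peak mostly had none nearby. Within 5000 bp of the start site an optimal summit was found only for pbs-6 (1101 bp away, in the window of C02F5.12), rpn-13 (2987 bp) and pbs-5 (3976 bp). For the other 9 the nearest summit was between 8147 bp (pas-6) and 34783 bp (pbs-4) away. No such distances are given here for other genes without a peak, so whether this is particular to the members is unknown. In 5 of the 12 (pbs-5, rpt-3, rpn-10, rpn-13 and rpn-6.2) the gene directly upstream lies on the same strand, with gaps of 54 to 478 bp. The same holds among members with a peak for pas-1, pas-5, pbs-3, rpt-1 and rpn-11, with gaps of 22 to 1446 bp. No share over all genes is given for this arrangement. Whether any member without a peak is transcribed from a start site farther upstream was not tested.

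The motif found in most member windows was the SKN-1 core site. TGTCAT or TATCAT was found on either strand within 75 bp of 11 of 21 member summits (52.4%, 29.8 to 74.3%), against 16.1% of all 2357 promoter summits. The matches lay in 2 of 8 core windows (pas-1 and pbs-1) and 9 of 13 regulatory windows (rpt-2, rpt-4, rpt-5, rpt-6, rpn-2, rpn-7, rpn-8, rpn-11 and rpn-12). Of the 11 matches, 8 were TGTCAT or ATGACA and 3 were TATCAT or ATGATA. The member windows were poorer in G and C than the rest, with a median of 37.7% (31.1% at pbs-2 to 47.0% at pbs-1), against 43.0%. Among the other 1600 promoter summits within the members' GC range, 19.1% held a match, and among the 557 within the members' interquartile GC range, 21.9%. In the other complexes compared, a match was found in 3 of 63 distinct windows at cytosolic ribosomal genes, 2 of 21 at mitochondrial ribosomal genes and 2 of 9 at vacuolar ATPase genes. None of these differences was tested.

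**Figure D5:**
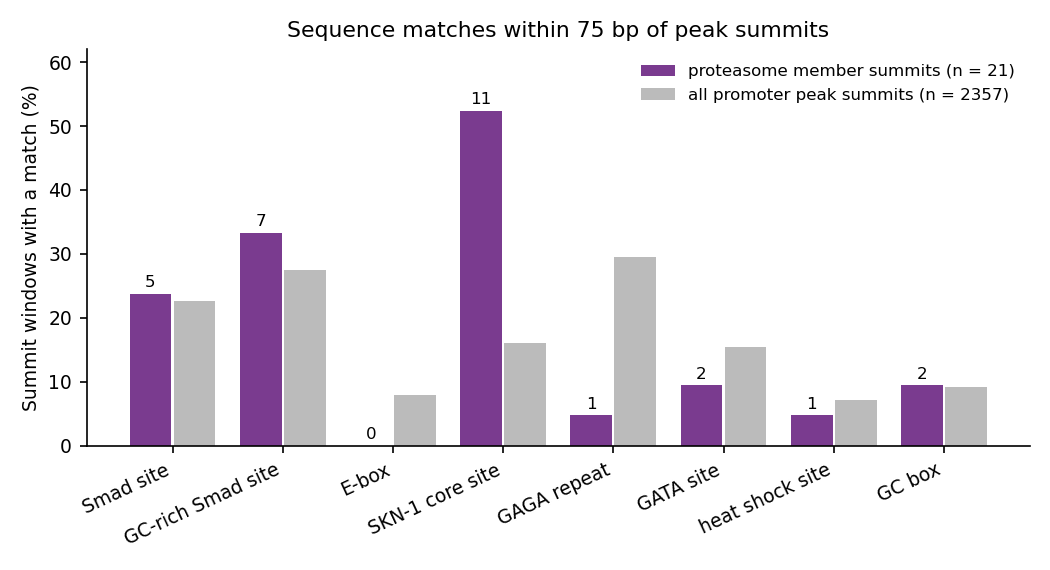
Share of summit windows (75 bp to either side) that hold each of 8 motifs on either strand, in percent, for the 21 proteasome summits (left bars, with counts) and all 2357 promoter summits (right bars). The SKN-1 core site is more frequent in member windows (52.4%) than in all windows (16.1%), and the GAGA repeat less frequent (4.76% against 29.6%).

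The position of these matches was uniform, a feature chosen for description after the values were seen. All 11 started 23 to 68 bases from the summit on the side of the proteasome gene, and none on the far side, where each window extends equally. At rpn-2 the match began 23 bases past the summit, at rpt-2 26, and at rpn-7, rpn-8 and rpn-11 31 each. At rpt-5 it began 37 bases past, at rpt-6 38, at rpt-4 45, at pbs-1 and rpn-12 55 each, and at pas-1 68. With each window turned instead toward the nearest start site of any gene, 8 of the 11 were on the start-site side, against 199 of 438 matches (45.4%) at the other promoter summits. Measured from the proteasome start sites, the matches began between 759 bp upstream (pas-1) and 26 bp downstream (rpn-11), with a median of 194 bp upstream. In fixed windows of 300 bp upstream of the start sites the contrast was small: 13 of 33 members (39.4%) held a match, against 31.2% of all genes, with 8 among the 21 members with a peak and 5 among the 12 without.

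The Smad elements were found in fewer member windows, at shares closer to those of all summits. GTCTG was found in 5 of 21 windows (23.8%), at pbs-3, rpt-1, rpt-2, rpn-3 and rpn-9, against 22.7% of all promoter summits. GGCGC was found in 7 (33.3%), at pbs-1, rpt-6, rpn-2, rpn-7, rpn-8, rpn-9 and rpn-12, against 27.5%. Other motifs were rare: GAGAGA was found in pas-3 alone (4.76%, against 29.6%), the GATA site TGATAA in rpt-5 and rpt-6 (9.52%, against 15.5%), the GC box GGGCGG in pbs-3 and rpn-7 (9.52%, against 9.16%) and GAANNTTC in rpn-3 alone (4.76%, against 7.21%). The E-box CACGTG was in no member window (0 of 21, exact upper limit 16.1%), against 8.02%. These letters say nothing of which factor was bound.

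The members lay on all 5 autosomes and none on the X. Chromosome I held 10 members, of which 7 had a peak (pas-3, pas-4, pas-5, pbs-2, pbs-7, rpt-5 and rpn-8), against 18.1% of all genes there. Chromosome II held 7, of which 6 had one (pbs-3, rpt-4, rpn-5, rpn-9, rpn-11 and rpn-12), against 13.7%. On chromosome III 3 of 8 had a peak (rpt-6, rpn-2 and rpn-3), against 19.8%. On chromosome IV it was 2 of 3 (pbs-1 and rpn-7), against 13.3%, and on chromosome V 3 of 5 (pas-1, rpt-1 and rpt-2), against 10.2%. Chromosome III thus had the most members without a peak: pbs-6, rpt-3, rpn-13, rpn-6.1 and rpn-6.2.

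Beyond the genes taken as subunits by their symbol, 19 of 48 genes (39.6%) of the ubiquitin and proteasome pathway lists had a promoter peak, against the 14.3% of all genes. Of the 11 genes for unfolding and shuttling, 7 had one, led by cdc-48.1, an ATPase that unfolds ubiquitinated proteins, with a signal of 1353 (rank 4), followed by ubql-1 (429.7), ufd-3 (273), ufd-2 (149) and rad-23 (105). All 3 genes for ubiquitin and its activating enzyme had a peak: ubq-2 (209.7), ubq-1 (131) and uba-1 (108). Of the proteasome-associated genes, ubh-4 (153) and usp-14 (90.5), both deubiquitinases, had a peak, and dss-1, psmd-9 and psme-3 had none. Of 18 ubiquitin-conjugating enzymes, 6 had one, the highest being ubc-6 (377), let-70 (305), ubc-25 (284), ubc-3 (184) and ubc-7 (170.2). Of 5 genes in the activation of SKN-1A, skn-1 itself had a peak (166), while ddi-1, png-1, sel-1 and sel-11 had none. The COP9 signalosome is built like the lid, and none of its 6 listed genes had a peak (exact upper limit 45.9%), against 7 of the 9 lid genes taken by symbol. That upper limit lies above the 14.3% of all genes, so the count does not set these genes apart from all genes. A pooled region was found at 3 of the 6, against 41.5% of all genes. Among the highest regions of both replicates was 1 of the 6, against 2420 of all 19973 genes.

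Other large complexes gave a wide range of shares. Cytosolic ribosomal protein genes had a peak at 66 of 81 (81.5%), with a median signal of 228, above the proteasome median of 125. Vacuolar ATPase genes had one at 9 of 20 (45.0%) and mitochondrial ribosomal protein genes at 22 of 70 (31.4%). Among the 2102 optimal peaks of highest signal, 11 members kept one (pas-4, pas-5, pbs-1, pbs-7, rpt-1, rpt-2, rpt-6, rpn-3, rpn-5, rpn-9 and rpn-11), against 8.36% of all genes.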

How the data were processed

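The authors deposited narrowPeak lists on build ce11 for the pooled reads, for each replicate and for the optimal set. Peak signal and summit offset were used as deposited by the authors. The optimal list is labelled as thresholded by IDR, and the pooled list as peaks and background that were the input for it. Aligner, peak caller, threshold values, signal scale and depth: not given in the sources used here. Both replicates share 1 control. Lists on build ce10 were not used and no coordinates were converted.

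Summits were assigned to promoter windows 1000 bp up to 200 bp down of 29314 start sites of protein-coding transcripts (Ensembl release 115), and a summit counted for every gene whose window held it. Motifs were GTCTG and the GC-rich GGCGC for Smads, the E-box CACGTG, the SKN-1 core TGTCAT or TATCAT, the repeat GAGAGA, the GATA site TGATAA, the heat shock element GAANNTTC and the GC box GGGCGG, on both strands within 75 bp of summits, in RefSeq sequence. Matches of different motifs may overlap. The summit assignment was tested on simulated data. Intervals are exact (Clopper-Pearson). With 1 group, no comparison was tested. Members and lists were chosen with earlier results of these data known. All members are named, as are shared neighbours, and up to 5 genes with a peak of each pathway list by signal. The ribosomal pattern also took 3 replication protein A genes, left out here. Alternatives were other windows, list cuts, replicate overlaps and start-site rules, and each replicate alone. Figures were drawn with matplotlib 3.10.9, intervals came from scipy 1.17.1, and the rest used pandas 2.3.3 and numpy 2.4.6 in Python 3.11.15.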

Additional observations from a re-analysis of the deposited data

How the results depend on the processing

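The count of proteasome genes with a promoter peak (21; core 8, regulatory 13) depended most on which peaks were admitted. It was 11 (core 4, regulatory 7, against 8.36% of all genes) among the 2102 peaks of highest signal. It was 13 (core 5, regulatory 8, against 8.82% of all genes) when peaks had to overlap both replicates reciprocally by 50%. With a summit counted for the nearest start site alone, the count was 14 (core 4, regulatory 10), against 11% of all genes. With all pooled regions it was 31 (core 13, regulatory 18), against 41.5% of all genes. Each replicate alone gave 20 to 22 members (core 7 to 8, regulatory 13 to 14) and median best percentiles of 87.7 to 90.7 for the core and 88.1 to 91.2 for the regulatory particle, the lower values without replicate 2. A window of 500 bp up to 100 bp down gave 19 (losing pas-1 and pas-5), against 11.4% of all genes. The most upstream start site alone gave 20 (losing rpt-4), against 13.4%. A window of 2000 bp upstream gave 21, against 18.4% of all genes, and the whole peak interval gave 21, against 15.2%. In the main setting the share of all genes was 14.3%, so with these 2 rules it rose while the member count did not. Within 150 bp of the summit TGTCAT or TATCAT was found at 57.1% of member summits, against 30.8% of all promoter summits, a smaller contrast than within 75 bp. In the same wider windows GTCTG was found at 28.6% of member summits, against 33.9%, and GGCGC at 33.3%, against 33.9%. Neither Smad element was thus more frequent at member summits there. No paired analysis was possible because there was 1 group. The unknown depth and the absence of an untagged control among the files analysed limit what a peak shows.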
